A study of Mus musculus with 9 samples.

Results

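The genes described here are 9 regulators of the muscle precursors that enter the limb bud: *Pax3*, *Pax7*, *Lbx1*, *Met*, *Hgf*, *Myf5*, *Myod1*, *Eya1* and *Gab1*. They were chosen by name among the 32289 features of the count tables. No cut on their levels was used, but earlier results of these data were known. They were followed in 2997 muscle progenitor-like cells and in 34243 mesenchymal cells, of 44654 cells kept in all. Single cells from pairs of forelimb buds of mouse embryos were profiled at E10.75, staged at 37 to 39 somites. The embryos were of both sexes on a Swiss Albino background, with 3 biologically independent libraries per genotype. Wild-type (Wt) embryos were set against embryos homozygous for EC1CRM8Δ/Δ (E1C8Δ/Δ) or EC1CRM5Δ/Δ (E1C5Δ/Δ). Both mutant alleles combine the EC1 deletion with a further deletion, of CRM8 or of CRM5, and lack 4 of the 7 limb bud enhancers that drive *Grem1*. GREM1 is secreted and blocks bone morphogenetic proteins (BMPs). Both give tetradactyl limbs. The deletions are in the germline, so that muscle progenitors and mesenchyme carry them alike, and the Wt embryos carry neither.

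The skeletal muscle of the limb does not arise from the limb bud itself. Cells of the dermomyotome of the somites, which express *Pax3*, detach and migrate into the bud when the receptor tyrosine kinase MET on their surface binds hepatocyte growth factor (HGF), which the limb mesenchyme secretes. LBX1 is needed for the migrating cells to find their way, and GAB1 is a docking protein that passes the MET signal on inside the cell. Once in the bud, the cells turn on *Myf5* and then *Myod1*, the myogenic basic helix-loop-helix factors that commit them to muscle, while EYA1 is a transcriptional co-activator upstream of them and PAX7 marks the progenitors that later persist beside *Pax3*.

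To show the promoters at both ends of this pathway, the windows around the start sites of *Hgf*, the mesenchymal ligand, and of *Myf5*, the first myogenic factor, are given. They were taken from RefSeq (GRCm38.p6) and run 5′ to 3′ on the strand of the gene, from 250 bases before the annotated start to 30 bases after it. Capitals mark the E-box letters CANNTG, the core that myogenic factors can bind, and the TATA box letters TATAAA, each searched on both strands.
Hgf, chr5:16553245-16553524, plus strand: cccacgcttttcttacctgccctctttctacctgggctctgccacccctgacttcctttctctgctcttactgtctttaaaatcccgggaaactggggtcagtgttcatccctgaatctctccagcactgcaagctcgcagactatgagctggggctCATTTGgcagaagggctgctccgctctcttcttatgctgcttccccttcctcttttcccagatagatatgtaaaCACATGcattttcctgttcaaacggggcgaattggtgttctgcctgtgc
Myf5, chr10:107486105-107486384, minus strand: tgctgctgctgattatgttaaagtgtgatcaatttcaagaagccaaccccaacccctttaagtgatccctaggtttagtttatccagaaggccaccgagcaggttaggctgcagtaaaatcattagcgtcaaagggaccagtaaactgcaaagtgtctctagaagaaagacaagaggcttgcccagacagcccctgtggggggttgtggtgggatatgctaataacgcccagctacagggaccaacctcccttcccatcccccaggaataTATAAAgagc
The *Hgf* window held CATTTG and CACATG, which begin 93 and 19 bases before the start. The *Myf5* window held no CANNTG, and a TATAAA began 20 bases after the annotated start. In windows that reach 50 bases past the start, the *Met* promoter held CACGTG, which begins 126 bases before the start, and CAGGTG, while those of *Pax7* and *Gab1* and a second *Hgf* window held neither motif. Of 32544 promoters of that length, 72.3% held at least 1 CANNTG, 39.6% held at least 2 and 13.6% held a TATAAA. *Pax3*, *Lbx1*, *Myod1* and *Eya1* had no entry in the promoter table. In GRCm38, with the gene models of GENCODE M21, *Myf5* lies at chr10:107482908-107486134 on the minus strand, *Myod1* at chr7:46376474-46379099 on the plus strand, *Lbx1* at chr19:45232684-45235812 on the minus strand, *Pax3* at chr1:78101267-78197134 on the minus strand, *Met* at chr6:17463800-17573980 on the plus strand and *Hgf* at chr5:16553495-16620152 on the plus strand.

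The libraries held 592 to 8699 kept cells, and Wt replicate 3 (897 cells) and E1C8Δ/Δ replicate 1 (592 cells) were by far the smallest. At most 0.497% of the kept barcodes of the smaller library of a pair recurred in another library. By *Xist* and Y-linked genes all 3 Wt embryos were male, whereas each mutant had 1 male and 2 female libraries. Sex and genotype are therefore partly bound together when a mutant is set against Wt, but not when the mutants are set against each other. In mesenchymal cells *Grem1* was at 44.6, 30.3 and 32.9 CPM (UMI counts scaled to the library total, with TMM) in Wt, at 11.9, 10.9 and 14.7 in E1C8Δ/Δ and at 19.7, 17.6 and 24.5 in E1C5Δ/Δ. Its level fell in both mutants (edgeR quasi-likelihood test, log2 fold change -1.52, adjusted p = 0.0017 in E1C8Δ/Δ, and -0.80, adjusted p = 0.041 in E1C5Δ/Δ). In muscle progenitor-like cells *Grem1* was at 5.15 to 11.8 CPM in Wt, 6.91 to 15.9 CPM in E1C8Δ/Δ and 7.17 to 13.8 CPM in E1C5Δ/Δ. The groups overlapped, and no fall was called there (same test, both mutants against Wt, log2 fold change 0.21 ± 0.26 SE, adjusted p = 0.76).

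The muscle progenitor-like cells formed a cluster of their own, made without the 9 genes, in which all 8 of the markers fixed for this cell type (*Hpgd*, *Sim2*, *Eya2*, *Mybpc1*, *Sp5*, *Gabra2*, *Adamts16* and *Cpne8*) were among the 50 leading genes. They are called muscle progenitors from here on. Each library held 46 to 573 of them. Their median depth was 30439 UMIs per cell, and the library medians ranged from 20823 to 58188. They made up 5.37%, 6.19% and 7.69% of the kept cells in Wt, 7.77%, 6.59% and 7.45% in E1C8Δ/Δ, and 8.85%, 5.86% and 6.63% in E1C5Δ/Δ. The mean share was thus 6.42% ± 1.18 (SD, n = 3), 7.27% ± 0.612 and 7.11% ± 1.55, and the groups overlapped. The mutants exceeded Wt by 0.772 percentage points (two-sided exact permutation test, 6 against 3 libraries, p = 0.333), less than the spread between Wt libraries. With 6 against 3 libraries this test can give no p below 0.0119.

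Across the cell classes of the bud, 7 of the 9 genes had their highest level in muscle progenitors, as a description, since the classes come from clusters of the same cells. In the comparison of classes, in mesenchymal clusters and in summed markers, CPM were scaled to the UMIs of the class or cluster, without TMM. *Pax3* lay between 301 and 550 CPM in the 9 libraries of muscle progenitors, with a median of 425 CPM, against a median of 1.75 CPM in mesenchyme. The next highest class was the immune cells, at 0 to 46.7 CPM, whose range overlapped that of every class below it. *Lbx1* was at 144 to 216 CPM in muscle progenitors and at most 14.7 CPM in any library of another class. These 2 genes, which mark the migrating precursors, did not overlap between muscle progenitors and the rest.

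*Myf5* was at 22.5 to 93.1 CPM in muscle progenitors, and at 0.059 to 0.753 CPM in mesenchyme and 0 to 0.864 CPM in blood cells, a class that should lack it. *Myod1* ranged from 0 to 41.6 CPM in muscle progenitors and reached no more than 0.518 CPM in any other class. The muscle progenitors of each Wt library stood above all other classes in both genes. *Pax7* was at 0.504 to 4.08 CPM in muscle progenitors, a range that overlapped those of the epithelium (0 to 1.10 CPM) and of immune cells (0 to 0.518 CPM), and no UMI of it was seen in vessels or blood.

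*Met* and *Eya1* had a further site of expression, the epithelium. *Met* was at 87.8 to 135 CPM in muscle progenitors, at 11.4 to 22.1 CPM in epithelium, at 4.06 to 11.2 CPM in immune cells and at 0.861 to 2.21 CPM in mesenchyme. *Eya1* was at 69.5 to 136 CPM in muscle progenitors, at 5.27 to 13.8 CPM in epithelium and at 1.08 to 2.06 CPM in mesenchyme. *Gab1* followed another order, with medians of 25.4 CPM in vessels, 22.9 in epithelium, 12.1 in mesenchyme, 12.1 in muscle progenitors and 6.87 in blood. Vessels and epithelium overlapped in *Gab1*, as did mesenchyme, muscle progenitors, immune cells and blood (5.38 to 16.8 CPM). *Hgf* was highest in mesenchyme, at 13.1 to 25.0 CPM, and the range of the epithelium, 3.66 to 13.2 CPM, just reached that of the mesenchyme. Muscle progenitors held 1.55 to 5.79 CPM of *Hgf* and overlapped the epithelium and the immune cells.

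**Figure D1:**
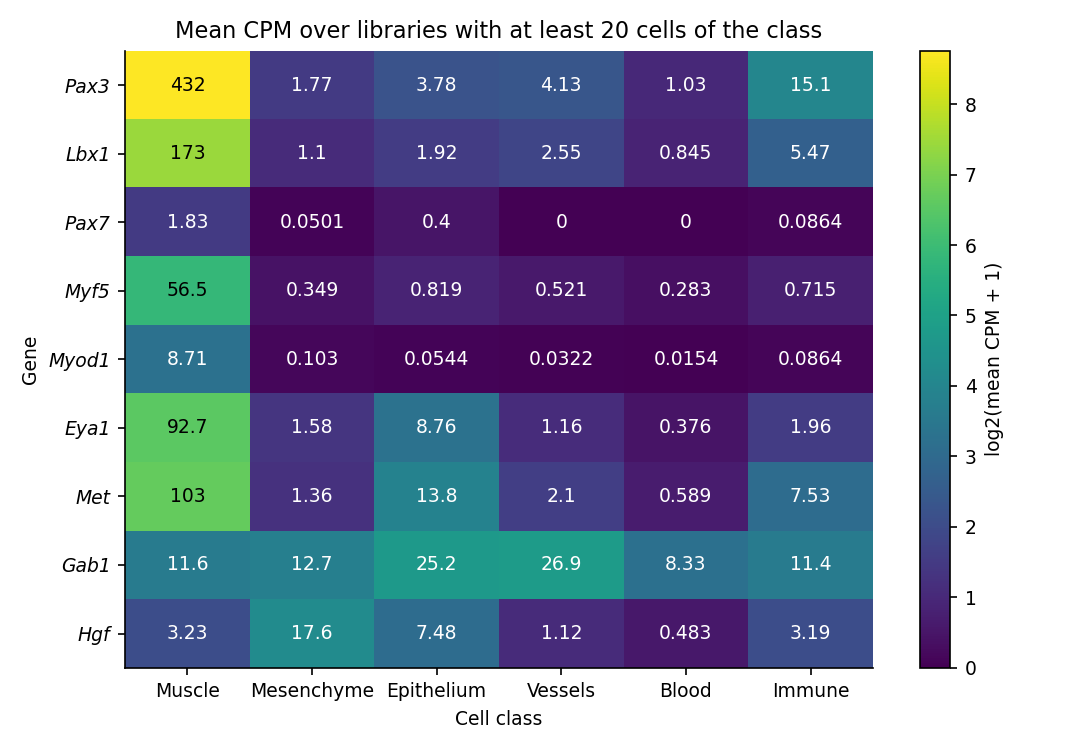
Heat map of the mean CPM of the 9 genes (rows) in 6 cell classes (columns), over libraries with at least 20 cells of the class (9 libraries for muscle and mesenchyme, 7 for epithelium, vessels and blood, 6 for immune cells), with colour on a log2(mean CPM + 1) scale. *Pax3*, *Lbx1*, *Pax7*, *Myf5*, *Myod1*, *Eya1* and *Met* are highest in muscle, *Hgf* in mesenchyme and *Gab1* in vessels.

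*Pax3* and *Lbx1* were each other's closest match over classes and libraries. Over 45 points (a class in a library) and among 9981 genes with a mean of at least 5 CPM, the gene with the level most like *Lbx1* was *Pax3* (Pearson r = 0.977 of log2(CPM + 1)), followed by *Sp5* (0.976) and *Sim2* (0.973). For *Pax3* they were *Lbx1*, *Sp5* (0.969) and *Gabra2* (0.964), and for *Myf5* they were *Sim2* (0.961), *Mybpc1* (0.960) and *Gabra2* (0.949). *Met*, which the epithelium also expressed, was most like *Eya2* (0.963), *Eya1* (0.960) and *Dlgap1* (0.912). The points share libraries and cell classes, and *Sp5*, *Sim2*, *Gabra2*, *Mybpc1* and *Eya2* are markers by which the muscle class was named, so that these values only describe the order.

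At the level of cells, most muscle progenitors held both *Pax3* and *Lbx1*. After each cell was thinned to 10000 UMIs, which left out 191 shallower cells, 577 of 825 Wt cells, 719 of 1062 E1C8Δ/Δ cells and 692 of 919 E1C5Δ/Δ cells held UMIs of both. The mean over libraries was 68.2%, 69.0% and 74.9%, and on all UMIs the Wt mean was 91.7%. *Pax7* was found in 18 Wt, 15 E1C8Δ/Δ and 3 E1C5Δ/Δ cells, and *Pax3* in 17, 15 and 3 of these, while 6, 5 and 0 of them held *Myf5*. At this depth all but 1 of the *Pax7* cells held *Pax3*, as did 88.4% to 96.4% of all muscle progenitors of a library. On all UMIs, 49 of 56 Wt, 28 of 39 E1C8Δ/Δ and 13 of 23 E1C5Δ/Δ cells with *Pax7* also held *Myf5*. Of all muscle progenitors, 441 of 854 Wt, 503 of 1141 E1C8Δ/Δ and 316 of 1002 E1C5Δ/Δ cells then held *Myf5* without *Myod1*. A further 100, 84 and 11 held both. UMIs of *Pax3*, *Met* and *Eya2* per thinned cell were more numerous in cells with *Myf5* than in cells without it in 8 of 9 libraries each. Those of *Lbx1* were so in 2 of 9 and those of *Pax7* in 1 of 9, as a description of cells that share a library. For *Pax7*, E1C8Δ/Δ replicate 1 and E1C5Δ/Δ replicate 2 had 0 UMIs in both sets of cells, and the other libraries had few. On all UMIs most cells with *Pax7* also held *Myf5*, as given above, so that these values give no clear order for *Pax7*. *Met* and *Lbx1* were found together in 370 Wt, 414 E1C8Δ/Δ and 392 E1C5Δ/Δ cells.

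Between genotypes, *Myf5* and *Myod1* fell in the muscle progenitors of the mutants pooled and in those of E1C5Δ/Δ, where *Myf5* fell to a level 3.01-fold below Wt and *Myod1* was near 0. *Myf5* was also lower in E1C5Δ/Δ than in E1C8Δ/Δ. *Pax3* was not called in any contrast, and *Lbx1* was higher in E1C5Δ/Δ than in E1C8Δ/Δ. Of the 9 genes, 2 passed an adjusted p of 0.05 for both mutants against Wt and 2 for E1C5Δ/Δ against Wt, *Myf5* and *Myod1* each time, where 1.14% of 12276 genes passed in each of these contrasts (0.823% lower and 0.318% higher for both mutants, 0.815% lower and 0.326% higher in E1C5Δ/Δ). For both mutants, 4 of the 9 had an unadjusted p under 0.05 and 1, *Myf5*, was called by DESeq2. Over all 12276 genes, 1719 had an unadjusted p under 0.05 and DESeq2 called 240. In E1C8Δ/Δ against Wt, edgeR called none of the 9, where 2.44% of all genes passed (1.60% lower and 0.831% higher), with 3 at an unadjusted p under 0.05 (*Met*, *Myod1* and *Eya1*) and none called by DESeq2. Over all genes in that contrast, 2386 had an unadjusted p under 0.05 and DESeq2 called 510. Between the mutants, *Myf5* and *Lbx1* were called, where 2.57% of all genes passed (0.994% higher and 1.58% lower in E1C8Δ/Δ).

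*Myf5* was at 91.2, 53.5 and 95.8 CPM in Wt muscle progenitors, at 69.1, 70.7 and 58.7 CPM in E1C8Δ/Δ and at 30.4, 26.2 and 22.6 CPM in E1C5Δ/Δ. Every E1C5Δ/Δ library was below every Wt and every E1C8Δ/Δ library, and Wt and E1C8Δ/Δ overlapped through Wt replicate 2. For both mutants against Wt the log2 fold change was -0.93 ± 0.16 (SE, adjusted p = 0.021). In E1C5Δ/Δ it was -1.59 ± 0.20 (adjusted p = 0.0029) and in E1C8Δ/Δ -0.27 ± 0.19 (adjusted p = 0.47). The test of the difference between the mutants gave 1.32 ± 0.20 (adjusted p = 0.0094), higher in E1C8Δ/Δ. With embryo sex as a covariate the fall in E1C5Δ/Δ was -1.70 at an adjusted p of 0.053 and that of both mutants -1.03 at 0.14, while the difference between the mutants was 1.33 at 0.010. Without Wt replicate 3, the fall of both mutants was -0.79 at an adjusted p of 0.093 and that in E1C5Δ/Δ -1.45 at 0.011, and without E1C8Δ/Δ replicate 2 the difference between the mutants was 1.26 at 0.058.

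*Myod1*, which follows *Myf5* in the limb, was at 13.4, 5.34 and 42.8 CPM in Wt, at 2.47, 7.70 and 6.25 CPM in E1C8Δ/Δ, and at 1.48, 0.902 and 0 CPM in E1C5Δ/Δ. These levels rest on few molecules: 169, 102 and 166 UMIs in Wt, 5, 102 and 87 in E1C8Δ/Δ, and 21, 4 and 0 in E1C5Δ/Δ. The E1C5Δ/Δ libraries were again below all others, and the high value of Wt replicate 3 came from 20 of its 69 cells, with 54.2% of the UMIs in 3 cells. In E1C5Δ/Δ replicate 3, none of 521 cells held a UMI of *Myod1*, which allows a level of up to 0.151 CPM there (3 counts). The log2 fold change was -3.13 ± 0.63 for both mutants (adjusted p = 0.035), -4.72 ± 0.88 in E1C5Δ/Δ (adjusted p = 0.021) and -1.53 ± 0.67 in E1C8Δ/Δ (adjusted p = 0.23), and the difference between the mutants was 3.19 ± 0.94 (adjusted p = 0.085). Without Wt replicate 3 these were -2.14 (adjusted p = 0.13) for both mutants and -3.73 (adjusted p = 0.048) in E1C5Δ/Δ, and with sex as a covariate neither passed (adjusted p = 0.30 and 0.14). DESeq2 called *Myod1* in E1C5Δ/Δ (adjusted p = 0.024) but not in both mutants together (adjusted p = 0.11).

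**Figure D2:**
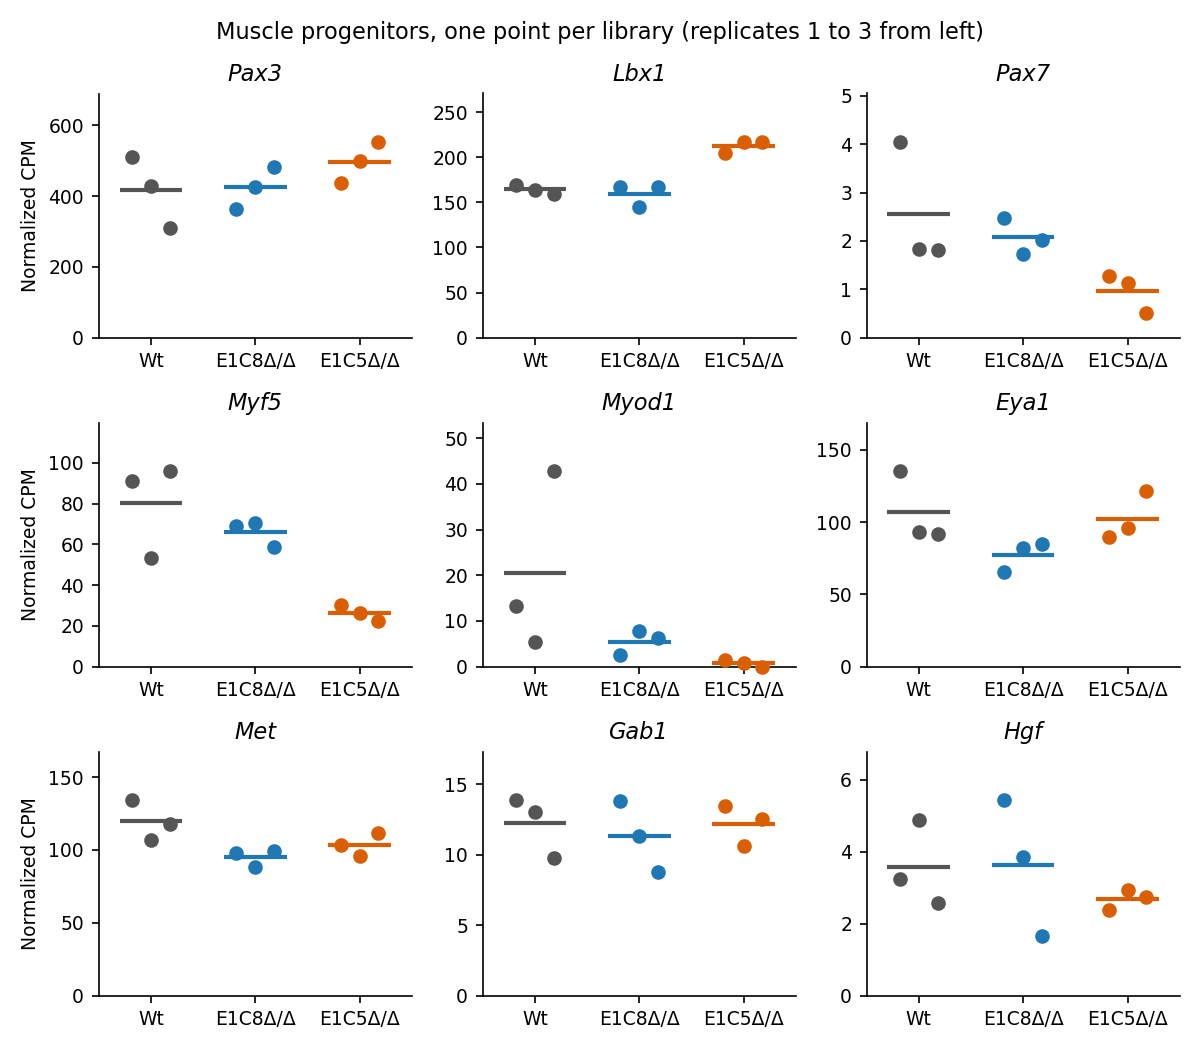
Normalized CPM of each of the 9 genes in muscle progenitors, 1 point per library (replicates 1 to 3 from left to right) and a line at the mean of the 3 libraries of a genotype, each panel with its own axis from 0. *Myf5*, *Myod1* and *Pax7* are lower in all E1C5Δ/Δ libraries than in all Wt libraries, and *Lbx1* is higher.

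The lower level of *Myf5* went with fewer cells in which it was detected and with fewer UMIs in those cells. At 10000 UMIs per cell, 47.6%, 29.7% and 50.7% of Wt muscle progenitors held *Myf5*, against 44.2%, 36.0% and 32.5% in E1C8Δ/Δ and 21.5%, 17.5% and 17.0% in E1C5Δ/Δ. On all UMIs, where depth differs, the means were 68.6%, 53.6% and 33.8%. In blood cells, which should lack *Myf5* and had a median depth of 32708 UMIs, 0% to 1.12% held it at 10000 UMIs. A thinned cell with *Myf5* held 2.06, 1.58 and 1.77 UMIs of it on average in Wt, 2.00, 2.03 and 1.65 in E1C8Δ/Δ, and 1.40, 1.19 and 1.23 in E1C5Δ/Δ.

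*Myod1* was found in 7.82%, 3.55% and 13.4% of thinned Wt cells, in 2.33%, 6.60% and 4.70% of E1C8Δ/Δ cells and in 1.19%, 0% and 0% of E1C5Δ/Δ cells. Sorted by both factors, 294 of 825 Wt cells held *Myf5* alone, 29 *Myod1* alone, 20 both and 482 neither. In E1C8Δ/Δ the numbers were 338, 28, 31 and 665 of 1062 cells, and in E1C5Δ/Δ they were 170, 2, 2 and 745 of 919. At this depth, cells without a UMI of either factor outnumbered those with *Myf5* alone in every library but Wt replicate 3 (27 against 31 cells). On all UMIs, 441 Wt cells held *Myf5* alone and 293 held neither. Over both mutants against Wt, the share of cells with *Myf5* was lower, with a difference of -14.5 percentage points (two-sided exact permutation test, p = 0.119) and that with *Myod1* differed by -5.79 points (exact p = 0.0714). Shares were tested for all 9 genes. None passed after adjustment, and *Pax7* had an unadjusted exact p under 0.05 (2.49% in Wt, 0.975% in E1C8Δ/Δ and 0.243% in E1C5Δ/Δ, p = 0.0476).

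**Figure D3:**
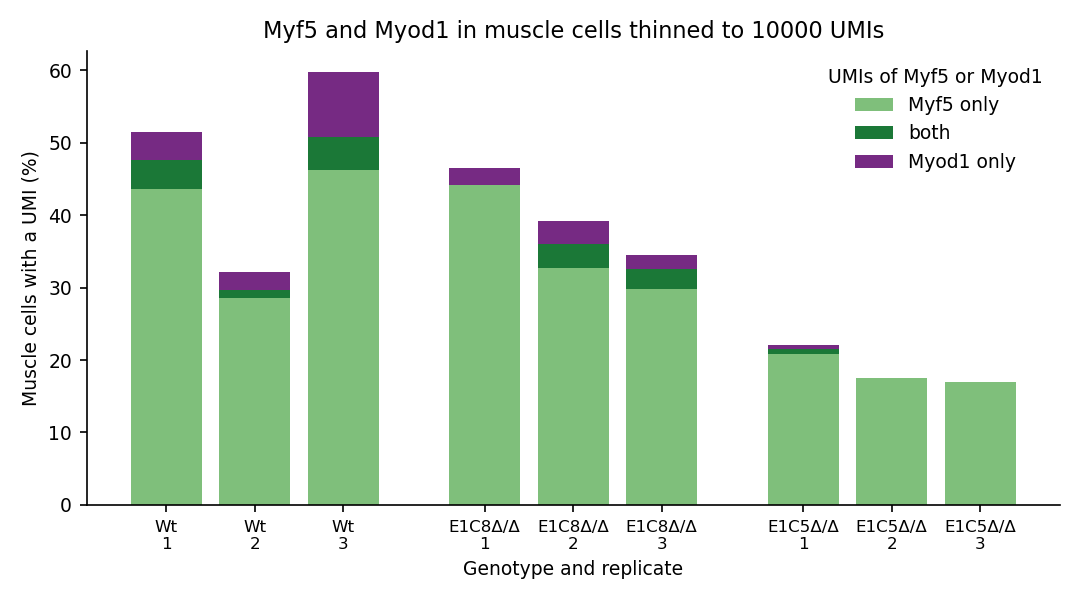
Share of muscle progenitors (%), thinned to 10000 UMIs, with UMIs of *Myf5* alone, of both factors, or of *Myod1* alone, stacked for each library from 0. The bars reach 17.0% to 22.1% in E1C5Δ/Δ, below all libraries of Wt (32.2% or more) and of E1C8Δ/Δ (34.6% or more).

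*Lbx1*, the homeobox gene of migrating precursors, was at 169, 164 and 160 CPM in Wt, at 167, 145 and 167 CPM in E1C8Δ/Δ, and at 205, 216 and 217 CPM in E1C5Δ/Δ. The 3 E1C5Δ/Δ libraries were above all others and the other groups overlapped. Its log2 fold change between the mutants was -0.42 ± 0.096 (adjusted p = 0.039), lower in E1C8Δ/Δ. Against Wt it was 0.37 ± 0.095 in E1C5Δ/Δ, with an adjusted p of 0.094 (0.047 with DESeq2, which called it), and -0.05 ± 0.096 in E1C8Δ/Δ. The difference between the mutants kept an adjusted p under 0.05 with sex as a covariate (0.046) and lost it under 13 of the 20 alternatives, among them a gate on markers (0.12), no doublet removal (0.21) and the fit without E1C8Δ/Δ replicate 2 (0.23).

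*Pax3*, the factor that specifies the migrating precursors, was at 509, 429 and 309 CPM in Wt, at 365, 427 and 482 CPM in E1C8Δ/Δ and at 436, 498 and 552 CPM in E1C5Δ/Δ. The groups overlapped, and the log2 fold change of both mutants was 0.14, with an interval of 2 SE from -0.15 to 0.43 (adjusted p = 0.70). *Pax7* was at 4.04, 1.83 and 1.80 CPM in Wt, at 2.47, 1.74 and 2.01 CPM in E1C8Δ/Δ and at 1.26, 1.13 and 0.506 CPM in E1C5Δ/Δ. The E1C5Δ/Δ libraries were below all others, from 18, 5 and 10 UMIs, but the log2 fold change of -1.55 ± 0.43 did not pass (adjusted p = 0.13).

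*Eya1* was at 135, 93.1 and 92.0 CPM in Wt, at 65.2, 82.1 and 84.8 CPM in E1C8Δ/Δ and at 89.8, 95.6 and 122 CPM in E1C5Δ/Δ. All E1C8Δ/Δ libraries were below all others, with a log2 fold change against Wt of -0.45 ± 0.17 (adjusted p = 0.16). *Met*, the HGF receptor, was at 134, 107 and 118 CPM in Wt, at 98.2, 88.1 and 99.2 CPM in E1C8Δ/Δ and at 103, 95.8 and 111 CPM in E1C5Δ/Δ. Here too the E1C8Δ/Δ libraries were below the Wt libraries, and the log2 fold change did not pass, at -0.33 ± 0.11 in E1C8Δ/Δ (adjusted p = 0.13) and -0.27 ± 0.094 for both mutants, with an interval from -0.46 to -0.08 (adjusted p = 0.22).

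*Gab1* in muscle progenitors was at 9.79 to 13.9 CPM in Wt, 8.77 to 13.8 CPM in E1C8Δ/Δ and 10.6 to 13.4 CPM in E1C5Δ/Δ. *Hgf* was at 2.58 to 4.87, 1.65 to 5.43 and 2.39 to 2.93 CPM. The 3 genotypes overlapped in both genes, whose log2 fold changes for both mutants were -0.13 ± 0.16 and -0.39 ± 0.30. In all, the E1C5Δ/Δ and Wt libraries did not overlap in 4 of the 9 genes (*Pax7*, *Myod1*, *Myf5* and *Lbx1*), against 14.8% of all genes tested. E1C8Δ/Δ and Wt did not overlap in 2 (*Eya1* and *Met*), against 25.6% of all genes. The mutants did not overlap with each other in 5 (*Eya1*, *Pax7*, *Myod1*, *Myf5* and *Lbx1*), against 26.1% of all genes.

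**Figure D4:**
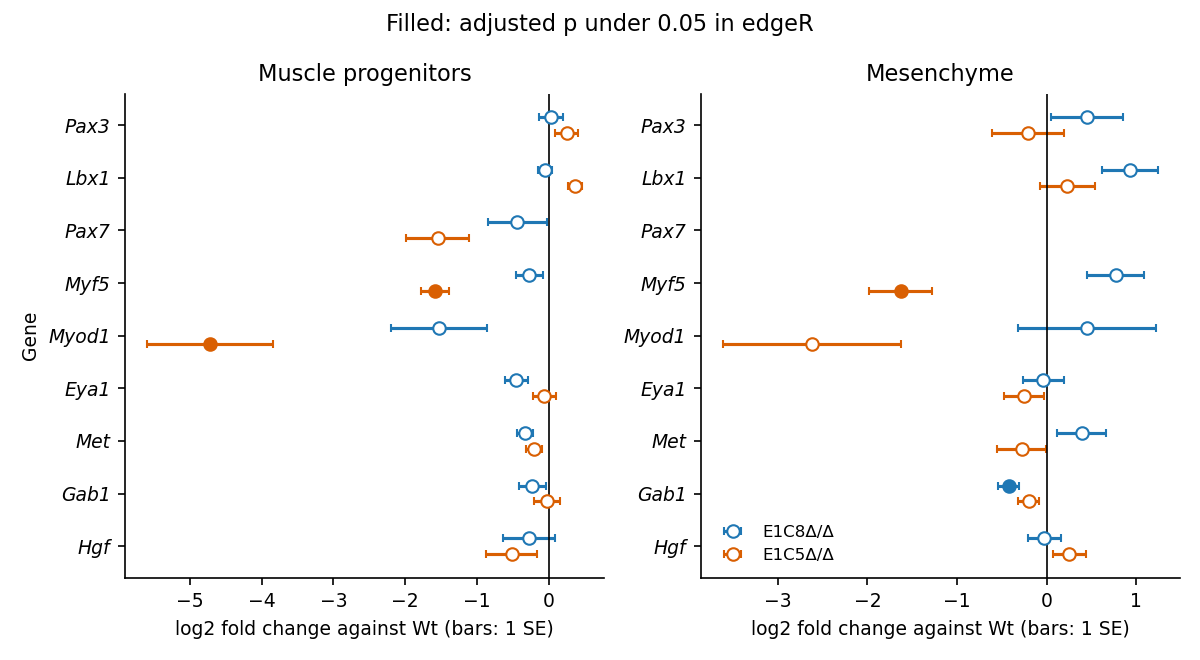
Log2 fold change of each gene against Wt in E1C8Δ/Δ (blue) and E1C5Δ/Δ (orange), in muscle progenitors (left) and mesenchyme (right), with bars of 1 SE and filled symbols where edgeR gave an adjusted p under 0.05. *Myf5* and *Myod1* in E1C5Δ/Δ are filled on the left, and *Myf5* in E1C5Δ/Δ and *Gab1* in E1C8Δ/Δ on the right, where *Pax7* was too low to be tested.

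Markers of other cell types were also measured in the muscle class, from which cells with mesenchymal markers had not been removed. The summed level of the 8 mesenchymal markers was 295 to 374 CPM in Wt, 329 to 708 CPM in E1C8Δ/Δ and 259 to 328 CPM in E1C5Δ/Δ, against 1780 to 2226 CPM in mesenchyme itself. The 8 muscle markers summed to 352 to 450 CPM in Wt, 408 to 457 CPM in E1C8Δ/Δ and 382 to 400 CPM in E1C5Δ/Δ. The blood, epithelial, vessel, immune, megakaryocyte and neural crest lists each stayed under 10 CPM in all libraries. The mesenchymal markers thus reached higher in E1C8Δ/Δ and overlapped between Wt and E1C5Δ/Δ, and their part in the results was not tested.

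The wider gene lists were taken from the pathway, with earlier results of these data known. They were described in the muscle progenitors for both mutants against Wt. There the median log2 fold change of all genes was -0.01 and 1.14% of them were called (0.823% lower). For the counts below, 1719 of all 12276 genes had an unadjusted p under 0.05 and DESeq2 called 240. Of the EYA and PAX-related co-factors and homeobox partners of the myogenic factors, 15 of 17 were tested, with a list median of -0.01. By edgeR 1, *Eya2*, was called, lower at -0.67 ± 0.13 (adjusted p = 0.032), while 6 had an unadjusted p under 0.05 and DESeq2 called 1. *Eya2* was at 64.0, 57.5 and 79.3 CPM in Wt, at 40.5, 41.3 and 55.4 CPM in E1C8Δ/Δ and at 40.8, 39.2 and 32.7 CPM in E1C5Δ/Δ, below Wt in each mutant library. *Sim2* (-0.34, adjusted p = 0.0996) and *Six2* (-0.75, adjusted p = 0.20) had the next lowest p. *Eya2* and *Sim2* are also markers by which the muscle class was named. The call of *Eya2* was lost with sex as a covariate (-0.49, adjusted p = 0.33) and without Wt replicate 3 (-0.54, adjusted p = 0.12).

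Among genes of myogenic differentiation, 16 of 22 were tested, with a list median of -0.39. By edgeR 1 was called, *Cdh15*, which encodes M-cadherin of the muscle lineage, while 7 had an unadjusted p under 0.05 and DESeq2 called 3. *Cdh15* was at 11.5, 9.63 and 42.8 CPM in Wt, at 7.40, 7.33 and 8.48 CPM in E1C8Δ/Δ and at 3.59, 4.29 and 2.28 CPM in E1C5Δ/Δ. All E1C5Δ/Δ libraries were below all E1C8Δ/Δ libraries and these below all Wt libraries, with Wt replicate 3 far above the rest. The log2 fold change was -1.94 ± 0.40 for both mutants (adjusted p = 0.035) and -2.60 ± 0.50 in E1C5Δ/Δ (adjusted p = 0.024), and -1.08 (adjusted p = 0.051) for both mutants without Wt replicate 3. *Mybpc1* (-0.43, adjusted p = 0.054) and *Boc*, a cell surface co-receptor that promotes differentiation (-0.44, adjusted p = 0.075), did not pass.

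None of the 16 genes that carry the MET signal was called by edgeR for both mutants in muscle progenitors (2 at an unadjusted p under 0.05, none by DESeq2), with a list median of -0.03. In E1C8Δ/Δ against Wt, where 2.44% of all genes were called, *Grb10*, an adaptor that dampens receptor tyrosine kinases, and the phosphatase gene *Ptpn11* were lower, at -0.52 ± 0.096 (adjusted p = 0.017) and -0.44 ± 0.10 (adjusted p = 0.037). None of the 11 genes of chemotaxis and guidance was called for both mutants (3 at an unadjusted p under 0.05, 2 by DESeq2), with a list median of -0.14, and *Epha4*, a guidance receptor, had the lowest p (-0.62, adjusted p = 0.062). In E1C8Δ/Δ, *Cxcr4*, a chemokine receptor of migrating muscle precursors, was higher. It was at 23.2, 12.5 and 17.5 CPM in Wt, at 41.95, 33.1 and 34.7 CPM in E1C8Δ/Δ and at 20.5, 13.5 and 26.1 CPM in E1C5Δ/Δ. Its log2 fold change in E1C8Δ/Δ was 1.02 ± 0.24 (adjusted p = 0.040). With sex as a covariate, 28 of all 12276 genes were called in E1C8Δ/Δ against Wt, fewer than the 299 without it. Of 8 genes for activators and inhibitors of HGF, *Plat* and *Spint2* were tested in muscle progenitors and neither was called (0.57, adjusted p = 0.29, and 0.33, adjusted p = 0.68, with 1 at an unadjusted p under 0.05 and none by DESeq2).

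In the mesenchyme, the source of the ligand, *Hgf* was at 19.3, 18.8 and 13.1 CPM in Wt, at 16.7, 15.1 and 18.8 CPM in E1C8Δ/Δ and at 21.1, 15.2 and 25.0 CPM in E1C5Δ/Δ. The groups overlapped. The log2 fold change was 0.11 for both mutants, with an interval of 2 SE from -0.21 to 0.44 (adjusted p = 0.75), -0.03 in E1C8Δ/Δ (interval -0.40 to 0.35) and 0.25 in E1C5Δ/Δ (interval -0.12 to 0.62). *Grem1*, whose enhancers are deleted, fell in the same cells as given above. None of the 8 genes for activators and inhibitors of HGF was called for both mutants in mesenchyme, at an unadjusted p under 0.05 or by DESeq2, and the list median was 0.10. Of all 16224 genes, 3128 had an unadjusted p under 0.05 there and DESeq2 called 958.

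*Hgf* was unevenly spread over the mesenchyme. Mesenchymal cells were clustered again without the 9 genes into 14 clusters. The cluster led by *Sostdc1*, *Ebf2* and *Meox2* had the highest level over the cells of all libraries, 51.5 CPM, and held 7.26% of mesenchymal cells and 19.5% of *Hgf* UMIs. The cluster led by *Gria2* and *Emx2* followed with 44.1 CPM and 18.1% of the UMIs, then that led by *Osr2* and *Grem1* with 33.0 CPM and 16.9% and that led by *Creb5* and *Gsc* with 28.1 CPM and 11.8%. The lowest levels were in the clusters led by *Msx1* (3.44 CPM), by *Tfap2b* and *Lmo2*, with *Hoxd13* and *Hoxa13* (2.53 CPM), and by *Shh*, the posterior signal, and *Hand2os1* (1.43 CPM). The last held 3.87% of the cells and 0.36% of the *Hgf* UMIs. When the 9 genes entered the clustering, a cluster led by *Sostdc1* again had the highest level, at 52.1 CPM, while that led by *Osr2* and *Meox2* came next (49.7 CPM), ahead of that led by *Emx2* and *Gria2* (34.1 CPM).

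Within the *Sostdc1* cluster, *Hgf* was at 61.5, 52.9 and 47.7 CPM in Wt, at 60.8, 44.4 and 49.7 CPM in E1C8Δ/Δ and at 43.2, 40.2 and 59.2 CPM in E1C5Δ/Δ, where it was found in 70.2%, 73.6% and 59.2% of Wt cells on all UMIs and in 41.5%, 37.2% and 33.3% at 10000 UMIs. The *Shh* cluster held 1.07 and 1.85 CPM in the 2 Wt libraries with at least 20 of its cells, 1.50 and 1.29 CPM in 2 E1C8Δ/Δ libraries and 0.987, 1.35 and 1.72 CPM in E1C5Δ/Δ. In each library with both clusters the first was far above the second, while the genotypes overlapped within each. In the *Gria2* cluster the levels were 45.2, 37.8 and 27.5 CPM in Wt, 27.5, 29.1 and 38.8 CPM in E1C8Δ/Δ and 36.7, 36.2 and 63.5 CPM in E1C5Δ/Δ, again with overlap. E1C5Δ/Δ replicate 3 was the exception in which the *Gria2* cluster stood above the *Sostdc1* cluster. Over 115 points (a cluster in a library) and 9537 genes, the levels most like *Hgf* were those of *Hs3st3b1* (Pearson r = 0.824), *Foxp4* (0.806) and *Afdn* (0.806). These points share libraries.

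**Figure D5:**
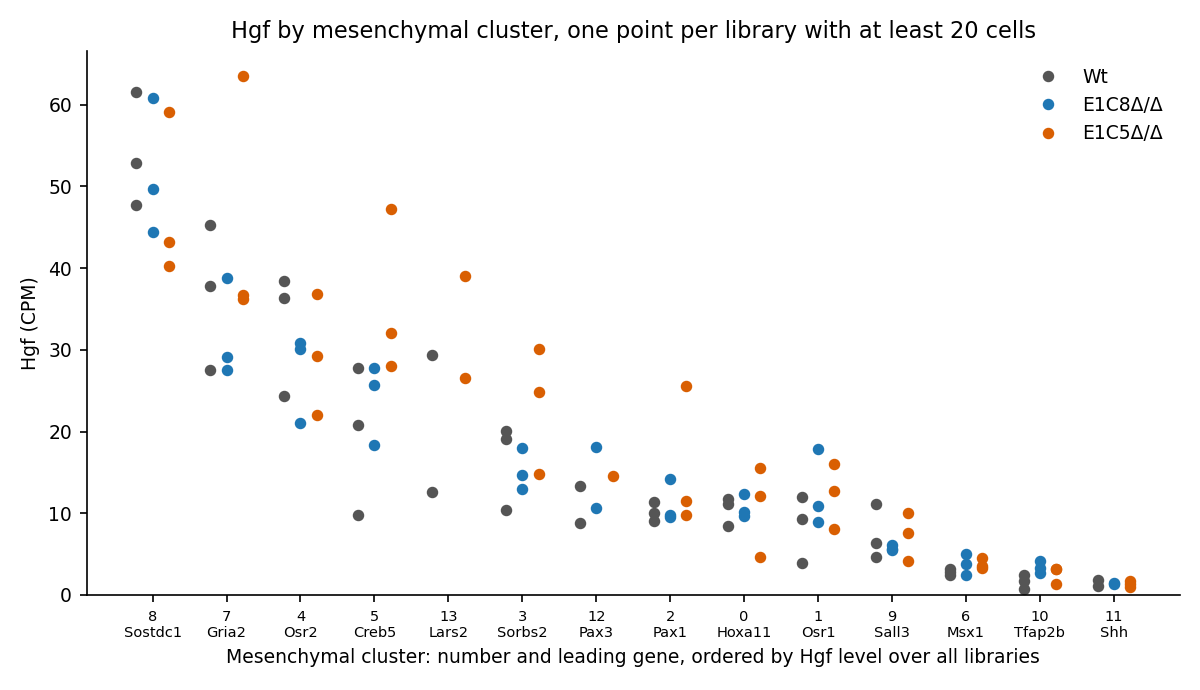
CPM of *Hgf* in the 14 mesenchymal clusters, 1 point per library with at least 20 cells of the cluster, clusters named by number and leading gene and ordered by the level over all libraries. Levels run from 40.2 to 61.5 CPM in cluster 8 (*Sostdc1*) down to 0.987 to 1.85 CPM in cluster 11 (*Shh*), and the genotypes overlap within both of these clusters.

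The other genes were also tested in mesenchyme, where *Pax7* was too low to enter. For both mutants against Wt, edgeR called none of the 8 that could be tested, where 2.29% of 16224 genes passed (1.60% lower and 0.684% higher), with 1 (*Gab1*) at an unadjusted p under 0.05 and none by DESeq2. Over all genes in this contrast, 3128 had an unadjusted p under 0.05 and DESeq2 called 958. *Gab1* was at 16.4, 15.3 and 13.2 CPM in Wt, at 11.3, 12.1 and 10.2 CPM in E1C8Δ/Δ and at 11.8, 13.2 and 14.1 CPM in E1C5Δ/Δ. The E1C8Δ/Δ libraries were below all Wt libraries, and *Gab1* was called there at -0.42 ± 0.11 (adjusted p = 0.043), where 9.02% of all genes passed (5.58% lower and 3.43% higher). In E1C5Δ/Δ it was at -0.20 ± 0.11 (adjusted p = 0.47) and the difference between the mutants did not pass (-0.22, adjusted p = 0.24). In E1C8Δ/Δ against Wt, DESeq2 called *Gab1* and *Lbx1*, where it called 2154 of all 16224 genes. *Lbx1* was at 0.93 ± 0.31 by edgeR (adjusted p = 0.090). The 1463 genes that edgeR called in this contrast became 176 with sex as a covariate, and the call of *Gab1* in it was not followed over the alternatives. *Gab1* was the only gene of the 9 whose E1C8Δ/Δ and Wt libraries did not overlap in mesenchyme, as for 31.9% of all genes tested.

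*Myf5* in mesenchyme was at 0.312, 0.297 and 0.513 CPM in Wt, at 0.490, 0.752 and 0.501 CPM in E1C8Δ/Δ and at 0.150, 0.065 and 0.109 CPM in E1C5Δ/Δ, from 4 to 99 UMIs per library. At 10000 UMIs, 0% to 0.698% of mesenchymal cells held it, within the range of blood cells. Whether these UMIs are background or expression was not tested. They were lower in E1C5Δ/Δ, at -1.63 ± 0.35 (adjusted p = 0.044, where 1.49% of all genes passed, 1.12% lower and 0.364% higher), and differed between the mutants by 2.40 ± 0.35 (adjusted p = 0.0043, where 9.20% passed, 5.23% lower and 3.98% higher). E1C5Δ/Δ was the lowest genotype, as in muscle progenitors, while E1C8Δ/Δ and Wt stood in the reverse order. The 8 muscle markers summed to 3.46 to 5.17 CPM in the mesenchyme of Wt, 4.77 to 7.37 CPM in E1C8Δ/Δ and 3.09 to 3.49 CPM in E1C5Δ/Δ. The part of free RNA from muscle progenitors in these values was not tested. E1C5Δ/Δ and Wt did not overlap in *Myf5* alone of the 8 genes, against 17.0% of all genes, and the mutants in *Myf5* and *Myod1*, against 34.1%.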

How the data were processed

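Forelimb buds were profiled by droplet single-cell RNA sequencing (10x 3′ v3.1 chemistry) after collagenase D dissociation. The UMI counts per gene and barcode were deposited by the authors as filtered matrices, made with Cell Ranger 6.0.1 on mm10 (Seurat 4.3.0.1 is also named in the submitters' processing notes). The 9 genes and all gene lists were chosen with earlier results of these data known, and some marker lists follow in part the study's lineage lists, which were made on these samples.

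Cells with at least 2500 genes, at most 200000 UMIs and at most 10% mitochondrial UMIs were kept. Doublets were called and removed at 0.8% per 1000 barcodes. Mesenchymal cells and muscle progenitors with 3 or more markers of another class were removed too. Mesenchymal markers were the exception and removed no muscle progenitor. Clusters (Seurat 5.3.0, 2000 variable genes without the 9 genes, 30 principal components, resolution 0.1, and 0.8 within mesenchyme) were named from 8 markers per class. Counts of a class were summed per library (1900066 to 20530093 UMIs in muscle progenitors, 15719783 to 248695992 in mesenchyme), and 1809 features of the X and Y chromosomes and 4 transgene features were left out. edgeR 4.0.16 fitted all 9 libraries with a term per genotype (filterByExpr, TMM, quasi-likelihood test), and p-values were adjusted by Benjamini-Hochberg over all genes tested. The study itself tested cells by a Wilcoxon test, which takes cells as replicates. DESeq2 1.42.0 and other filters, gates and libraries were alternatives. Intervals are 2 SE, n is the number of libraries, and shares of cells were tested by two-sided exact permutation. Cells were thinned to 10000 UMIs for shares. Zero counts were bounded at 3 counts, which, like depth, covers counting error only. Classes were compared over libraries with at least 20 cells of the class.

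The text names the 9 genes, *Grem1*, up to 3 genes per list and class with the lowest p for both mutants against Wt, the 3 genes most like *Lbx1*, *Pax3*, *Myf5*, *Met* and *Hgf*, and leading genes of mesenchymal clusters with the highest and lowest *Hgf*. Other clusters and other genes called in a list were named after their values were seen. On simulated counts with 200 genes changed by a log2 fold change of 1, the muscle test recovered 95% with 8 false calls among 12135 genes, and the mesenchyme test 99% with 13 among 16031. These rates describe the simulated counts only. In the real muscle libraries, the 140 genes called for both mutants became 0 with sex as a covariate and 27 without Wt replicate 3. Gene positions are from GENCODE M21 and promoters from RefSeq (GRCm38.p6). Python 3.11.15 with numpy 2.4.6, scipy 1.17.1 and pandas 2.3.3, and R 4.3.3 were used.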

Additional observations from a re-analysis of the deposited data

Results flagged for a closer look

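Of the values reported, 14 log2 differences between E1C8Δ/Δ and E1C5Δ/Δ passed the test of the difference itself (edgeR quasi-likelihood test, E1C8Δ/Δ minus E1C5Δ/Δ, 3 libraries each, with the same number of male and female embryos in both mutants). In muscle progenitors, *Myf5* was higher in E1C8Δ/Δ by 1.32 (adjusted p = 0.0094). *Lbx1*, at -0.42 (adjusted p = 0.039), and *Grb10*, at -0.47 (adjusted p = 0.028), were lower. Among the genes that respond to BMP, *Msx1* was higher by 0.82 (adjusted p = 0.018), *Id3* by 0.51 (adjusted p = 0.032) and *Msx2* by 2.03 (adjusted p = 0.040).

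In mesenchyme, *Grem1* was lower in E1C8Δ/Δ, at -0.72 (adjusted p = 0.027), as were *Eya3* at -0.45 (adjusted p = 0.013) and *Ptpn11* at -0.41 (adjusted p = 0.0099). *Meox2* was higher by 0.68 (adjusted p = 0.011), *Ackr3*, a scavenger receptor for chemokines, by 1.35 (adjusted p = 0.0023), *Bambi*, a pseudoreceptor of the BMP pathway, by 0.54 (adjusted p = 0.0039) and *Id3* by 0.61 (adjusted p = 0.0094). The few UMIs of *Myf5* found there, in a share of cells within the range of blood cells, differed by 2.40 (adjusted p = 0.0043). Groups of 3 libraries are too small for a search for single libraries that stand apart. The number of genes called between the mutants depended on single libraries. In muscle progenitors the 316 genes called became 311 with sex as a covariate and 17 to 394 without single libraries. In mesenchyme the 1493 genes became 1133 with sex as a covariate and 328 to 2067 without single libraries. Both lowest numbers came without E1C8Δ/Δ replicate 2.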

How the results depend on the processing

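Each value was recomputed with other tools, filters and cell selections and without single libraries, and 2 alternatives were added after seeing the data (male libraries alone, which leaves 1 library of each mutant against 3 of Wt and rests on the spread within Wt, and both small libraries, Wt replicate 3 and E1C8Δ/Δ replicate 1, left out). Over the 20 alternatives *Myf5* stayed lower in E1C5Δ/Δ in all and past the threshold in 18, and its difference between the mutants was called in 18. For the fall in E1C5Δ/Δ, the 2 exceptions were those that deal with embryo sex, the covariate and the male libraries alone. The other 18 set mutants of both sexes against male Wt embryos, so that this count does not bear on sex. *Myod1* in E1C5Δ/Δ was called in 15, and for both mutants *Myf5* was called in 13 and *Myod1*, *Cdh15* and *Eya2* in 8 each. The cause of the losses was not tested, beyond the smaller number of libraries where libraries were left out. Depth limits *Myod1* and *Pax7*, which had few UMIs, and with all Wt embryos male, sex and genotype cannot be fully told apart in the differences from Wt.

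For both mutants in muscle progenitors, 140 genes were called. The number was 240 with DESeq2, 0 with sex as a covariate (1353 at an unadjusted p under 0.05), 19 in male libraries, 55 with a marker gate, 567 without a low-count filter, 25 without both small libraries and 27 to 148 without single libraries. For E1C5Δ/Δ the 140 genes became 0 with sex as a covariate (1082 at an unadjusted p under 0.05), 6 in male libraries, 75 with the gate, 542 without the filter, 58 without both small libraries and 34 to 155 without single libraries. In mesenchyme the 371 genes became 958 with DESeq2, 6 with sex as a covariate, 17 in male libraries, 41 without both small libraries and 100 to 776 without single libraries. Of the 9 genes, the 2 called for both mutants in muscle progenitors became 1 with DESeq2 and without doublet removal, 0 with sex as a covariate, in male libraries, with the gate and without both small libraries, and 0 to 2 without single libraries. The 2 called in E1C5Δ/Δ became 0 with sex as a covariate and in male libraries, 1 without both small libraries, 3 with DESeq2 (with *Lbx1*) and 1 to 2 without single libraries. The 2 called between the mutants became 0 in male libraries, 1 with the gate, with the 9 genes in the clustering, without doublet removal and without both small libraries, 4 without the filter and 0 to 3 without single libraries. In mesenchyme the number for both mutants was 0 in all 20 alternatives.

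The replicate numbers did not pair the libraries (correlations of same-numbered deviations -0.11 to 0.04 in muscle progenitors and -0.14 to 0.11 in mesenchyme, 9 pairs each). With the replicate number as a block, the pairing left 62 genes called for both mutants and 93 for E1C5Δ/Δ in muscle progenitors, 103 in mesenchyme, 1 of the 9 genes for both mutants and 1 between the mutants. In the block fit *Myf5* was at -0.909 (adjusted p = 0.033) for both mutants and at 1.36 (adjusted p = 0.017) between them, and *Myod1* at -3.002 (adjusted p = 0.077).

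Directions changed only for values that were not called. *Pax3* in muscle progenitors was -0.0301 to 0.32 without single libraries. In mesenchyme, *Pax3* (0.12) was -0.046 with sex as a covariate, -0.0495 in male libraries, -0.12 with mixed cells kept, 0.36 without both small libraries and -0.16 to 0.32 without single libraries. *Met* (0.06) was -0.0381, -0.051 and -0.0132 under the first 3 of these alternatives and -0.0898 to 0.38, and *Hgf* -0.02 in male libraries, -0.03 without both small libraries and -0.0356 to 0.21. For the share of muscle progenitors with a UMI (percentage points, mutants minus Wt), *Lbx1* went from 5.12 to -2.05 and *Gab1* from 0.133 to -9.77 on all UMIs, and *Hgf* from -0.0252 to 0.629 with the gate. Without single libraries, *Pax3* was -1.95 to 1.48, *Gab1* -0.501 to 0.965 and *Hgf* -0.531 to 0.310. The Wt share with both *Pax3* and *Lbx1* was 91.7% on all UMIs.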

Other observations

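The BMP response genes, on which GREM1 acts as a secreted antagonist of the ligands, moved in the muscle progenitors of E1C8Δ/Δ. Of 8 genes in the list, 4 rose there against Wt (*Id3*, *Msx1*, *Msx2* and *Bambi*), with a list median of 0.59 on the log2 scale against -0.01 for all genes, of which 2.44% were called (0.831% higher). In that contrast the 299 genes called became 28 with sex as a covariate and 30 without both small libraries. Without single libraries 41 to 446 genes were called. In E1C5Δ/Δ, where 1.14% of all genes were called, edgeR called none, none had an unadjusted p under 0.05 and DESeq2 called none, with a list median of -0.13. Of all 12276 genes, 1213 had an unadjusted p under 0.05 in E1C5Δ/Δ and DESeq2 called 210. *Msx1*, which holds back myogenic differentiation in culture and is also one of the mesenchymal markers here, was at 31.7, 40.6 and 31.4 CPM in Wt muscle progenitors, at 86.9, 77.2 and 63.3 CPM in E1C8Δ/Δ and at 36.7, 44.7 and 46.1 CPM in E1C5Δ/Δ (log2 fold change in E1C8Δ/Δ 1.10, adjusted p = 0.0039). The summed mesenchymal markers, *Msx1* among them, reached 708 CPM in E1C8Δ/Δ against at most 374 CPM in Wt, and their part in this was not tested. In mesenchyme, the same 4 of the 8 genes (*Id3*, *Msx1*, *Msx2* and *Bambi*) rose in E1C8Δ/Δ, where 9.02% of all genes were called (3.43% higher). In E1C5Δ/Δ mesenchyme edgeR called 0, where it called 1.49% of all genes (2 at an unadjusted p under 0.05, 0 by DESeq2). Of all 16224 genes there, 2251 had an unadjusted p under 0.05 and DESeq2 called 581. The 1463 genes called in E1C8Δ/Δ mesenchyme became 176 with sex as a covariate and 540 without both small libraries. They became 378 to 1965 without single libraries.

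Of the other lists in mesenchyme for both mutants, where the median of all genes was -0.01 and 2.29% of them were called, *Meox2* was lower (-0.48, adjusted p = 0.045, 1 of 15 genes of the EYA and PAX-related list, list median -0.05), *Grb10* was lower (-0.38, adjusted p = 0.025, 1 of 16 of the MET signalling list, list median -0.12) and *Itga4*, an integrin subunit that binds fibronectin, was higher (1.06, adjusted p = 0.043, 1 of 11 of the chemotaxis list, list median 0.01). *Chrna1* was lower (-1.03, adjusted p = 0.039, 1 of 17 of the myogenic differentiation list, list median -0.22). By edgeR, *Meox2* was at -0.14 in E1C8Δ/Δ (adjusted p = 0.54) and at -0.82 in E1C5Δ/Δ (adjusted p = 0.013). Its fall for both mutants thus came mainly from E1C5Δ/Δ. Over the 20 alternatives, *Meox2* was called in 8, *Grb10* in 9, *Itga4* in 10 and *Chrna1* in 9.

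In Wt mesenchyme, the genes other than *Hgf* were also uneven among clusters. *Eya1* reached a mean of 8.76 CPM in a cluster of 171 cells led by *Lars2* and *Gm42418*, and 6.37 CPM in that led by *Pax1* and *Hoxb5*. It was lowest, at 0.317 CPM, in the cluster led by *Shh*. *Gab1* reached 23.7 CPM in the cluster led by *Sorbs2* and *Osr2* and 8.66 CPM in that led by *Tfap2b* and *Lmo2*. A cluster of 248 cells kept among the mesenchyme had *Pax3* as its leading gene and *Lbx1* among its first 8, at 6.74 and 2.95 CPM in Wt. The cluster of 171 cells, with a median of 9467 UMIs and *Pax3* also among its first 8, held more. There *Pax3* was at 33.3 CPM in Wt, *Lbx1* and *Met* at 6.65 CPM each, *Myod1* at 3.15 CPM and *Myf5* at 0 CPM. The 171 cells are those of all libraries, over which they held 41 UMIs of *Hgf*, at 22.6 CPM. The Wt levels of *Eya1*, *Lbx1*, *Met* and *Myod1* in this cluster thus rest on few UMIs. For the same reason, 0 CPM does not show that *Myf5* was absent. The part of muscle progenitors in both clusters was not tested. A further 2490 cells, led by *Gm42418*, *AY036118* and *Lars2* and with a median of 10694 UMIs, were left unnamed, and held 0.971 to 8.04 CPM of *Pax3* and 1.80 to 9.90 CPM of *Hgf*. Without doublet removal, a cluster of 2487 cells with a median of 10714 UMIs shared these 3 leading genes. It also had *Foxd3* and *Sox10* among its leading genes and was named neural crest and Schwann, from 3 of 8 markers. The 4 transgene features of the reference (eGFP, tdtomato, CreERT2 and IRES) had 0 UMIs in all 9 libraries.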
